A study of Dorcoceras hygrometricum with 3 samples.

Results

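Lipid genes of the resurrection plant Boea hygrometrica were examined for regions whose DNA methylation differed between hydrated and dehydrated leaves. They are the listed genes whose deposited KEGG description contains fatty acid, acyl-CoA, lipase, phospholipid, phospholipase, lipoxygenase, sterol, glycerol, ceramide or sphing, without phosphatidylinositol, ABC transporter and glutathione entries. The rule found 63 genes among the 5575 genes listed in all, with 36 different enzyme descriptions. Of these, 19 were listed at 70% relative water content (RWC) only, 28 at 10% RWC only and 16 at both, which makes 35 genes in the first table and 44 in the second.

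Leaves of potted plants were taken hydrated, dehydrated to 70% RWC or desiccated to 10% RWC, and genomic DNA was converted with bisulfite and sequenced. Each condition had 1 library, and the sources used here do not say how many plants went into a library. No difference below has a replicate check or a test, and each is a difference between 2 libraries. Methylation levels are deposited means per region, as fractions from 0 (none) to 1 (full), and the depth behind them is unknown. They have 2 decimals, so a listed 0 may be a small value rounded down. How each mean was taken over the cytosines is not stated in the sources used here. Below, the hydrated level comes first and the dehydrated level second, and a gain or loss is a higher or lower level in the dehydrated library. Only regions that differed were listed, so a gene missing from a table has no value there. Neither table gives the sequence context of the cytosines, exons, introns or expression.

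Leaf cells hold most of their membrane lipid as galactolipids and phospholipids of thylakoids, plasma membrane and endoplasmic reticulum, and water loss brings these membranes close enough to fuse or leak. Cells respond by remodelling lipids. Phospholipases cut phospholipids, diacylglycerol is turned into phosphatidic acid or storage oil, desaturases set the fluidity of acyl chains, and sterols and sphingolipids order the plasma membrane. Cytosine methylation in plants occurs in gene bodies and in flanking DNA, and its relation to transcription depends on place and sequence context.

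Lipid genes were mostly more methylated at 70% RWC and close to evenly divided at 10% RWC, as listed genes were in general. At 70% RWC the level was higher than in the hydrated leaf at 27 of 35 lipid genes and lower at 8, where 29.4% of all listed genes were lower. The higher share was 77.1% (exact 95% binomial interval 59.9 to 89.6, counting error only), beside 70.6% of all 3177 listed genes. At 10% RWC it was higher at 20 of 44 lipid genes and lower at 24, a share of 45.5% (30.4 to 61.2), beside 55.8% of all 3660 listed genes. Both general shares lay inside the intervals of the lipid genes. The sizes of the differences were close to those of listed genes in general. Among lipid genes with a higher level the median difference was 0.22 at 70% RWC and 0.18 at 10% RWC, the same values as over all listed genes. Among those with a lower level it was -0.24 and -0.245, beside -0.21 and -0.24.

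**Figure D1:**
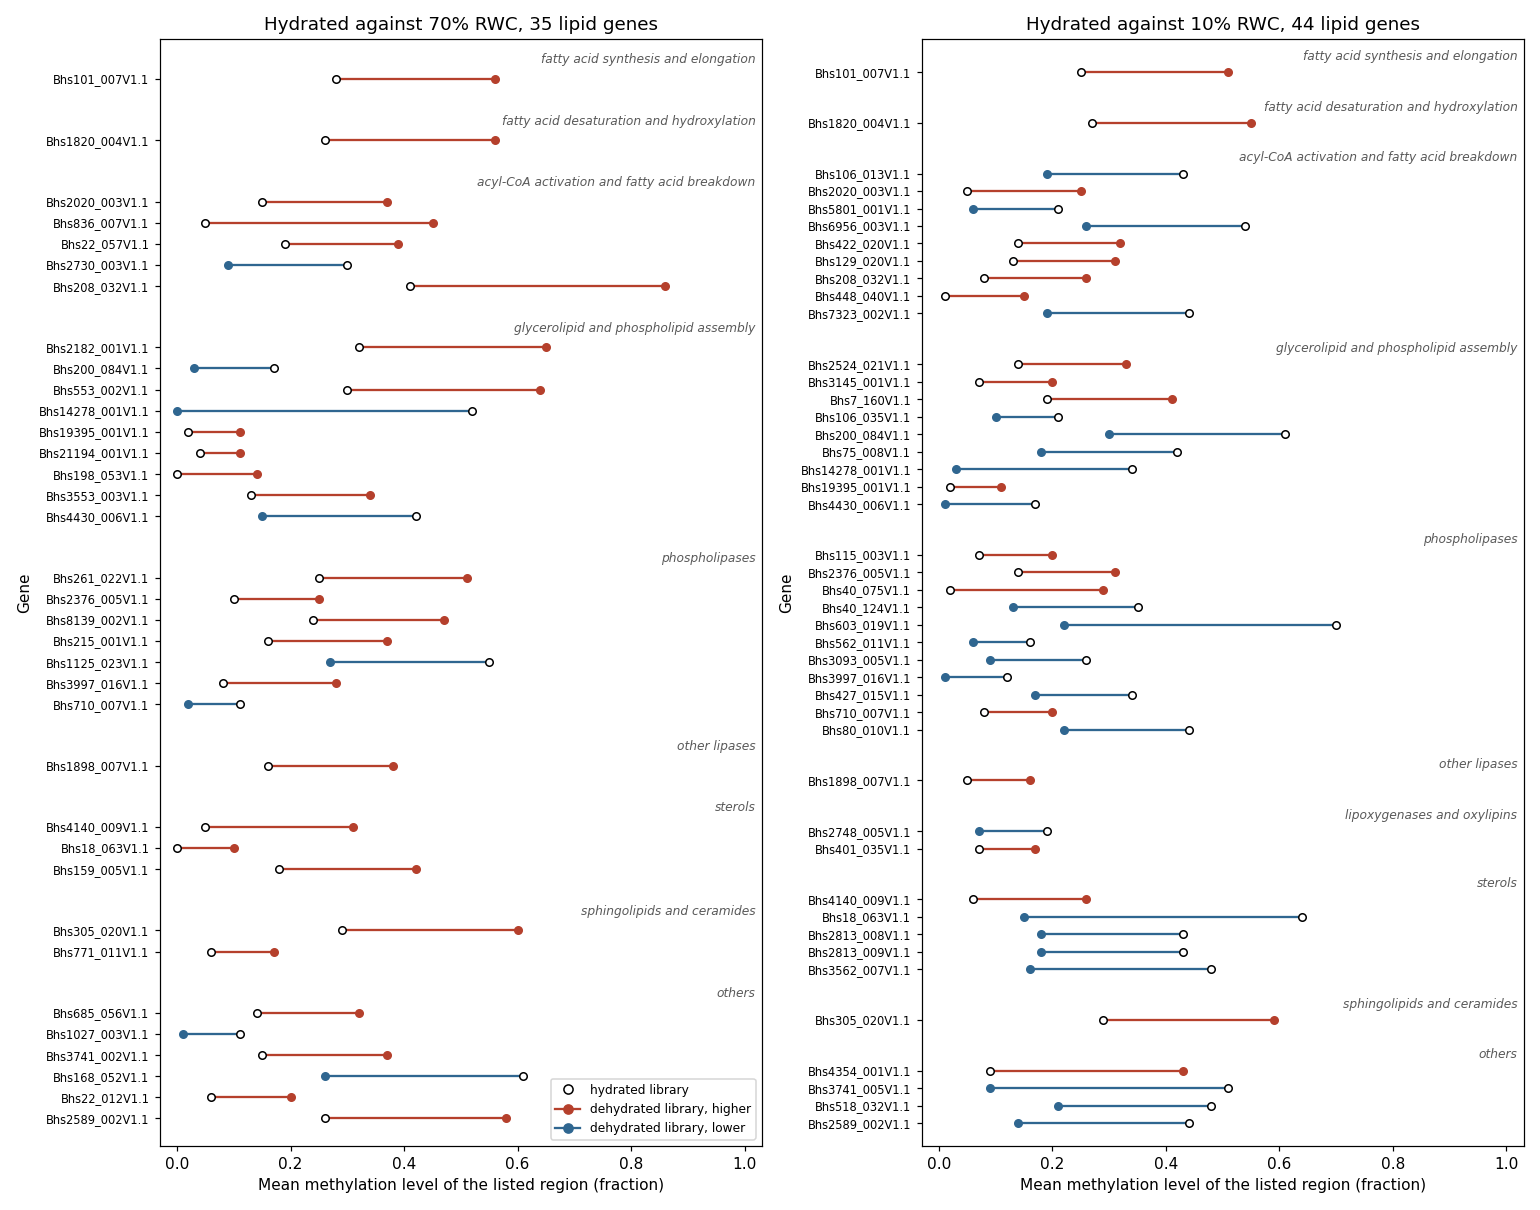
Mean methylation level (fraction) of the listed region of each lipid gene in the hydrated library (open circles) and the dehydrated library (filled circles, red where higher and blue where lower), grouped by the role of the enzyme. At 70% RWC 27 of 35 genes are red, and at 10% RWC 20 of 44.

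One gene of acyl chain elongation and one of desaturation met the keywords, and both were listed with higher levels in both dehydrated leaves. This was the most frequent outcome in general, found for 751 of all 1262 genes in both tables. Bhs101_007V1.1 encodes a 3-hydroxy acyl-CoA dehydratase, which removes water in the elongation cycle of very-long-chain fatty acids. In its body the level was 0.28 hydrated and 0.56 at 70% RWC. In a second stretch, 177 bp away, it was 0.25 hydrated and 0.51 at 10% RWC. Bhs1820_004V1.1 encodes an omega-3 fatty acid desaturase, which puts the last double bond into the trienoic acids of chloroplast and endoplasmic reticulum lipids. Its level was 0.26 hydrated and 0.56 at 70% RWC (scaffold1820, 51975 to 52210). In the second table it was 0.27 hydrated and 0.55 at 10% RWC (scaffold1820, 52046 to 52292), and the stretches share 165 bp. The dehydrated levels of the desaturase gene were 2.15 times and 2.04 times the hydrated ones. The lowest ratio of levels of any listed gene was 1.92 at 70% RWC and 1.86 at 10% RWC.

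Genes that activate acyl chains as CoA esters included the largest gain among lipid genes at 70% RWC. Long-chain acyl-CoA synthetases load free fatty acids onto coenzyme A for lipid assembly, wax synthesis or breakdown. In the body of the synthetase gene Bhs208_032V1.1 (scaffold208, 427282 to 427622) the level was 0.41 hydrated and 0.86 at 70% RWC. No other lipid gene was listed as high as 0.86 in any library. A second stretch of that gene, 2093 bp away, had 0.08 hydrated and 0.26 at 10% RWC. Of 4 such synthetase genes listed at 10% RWC, 3 were higher, where 55.8% of all listed genes were. That general share lies inside the exact interval of the synthetase genes (19.4 to 99.4). The gains lay in gene bodies, also at Bhs129_020V1.1 (0.13 and 0.31) and Bhs448_040V1.1 (0.01 and 0.15). The loss lay upstream of Bhs7323_002V1.1, where the level was 0.44 hydrated and 0.19 at 10% RWC. Genes described as fatty-acyl-CoA synthase, listed at 70% RWC only, went both ways, with 0.19 and 0.39 in the body of Bhs22_057V1.1 and 0.30 and 0.09 in the body of Bhs2730_003V1.1. Acyl-CoA thioester hydrolases do the reverse reaction and release the fatty acid. Upstream of the hydrolase gene Bhs836_007V1.1, 766 bp from the gene, the level was 0.05 hydrated and 0.45 at 70% RWC, the second largest gain of that list of lipid genes.

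Genes of fatty acid breakdown were divided, and part of their description is uncertain. Acyl-CoA oxidases start each round of beta-oxidation in the peroxisome. At 10% RWC 3 of 4 oxidase genes were lower, beside 44.2% of all listed genes. The exact interval of the higher share of oxidase genes (0.63 to 80.6) holds the general 55.8%. The 3 lower regions all lay in gene bodies, where 61.5% of all listed genes were higher, a share that the interval also holds. They were Bhs6956_003V1.1 (0.54 hydrated and 0.26), Bhs106_013V1.1 (0.43 and 0.19) and Bhs5801_001V1.1 (0.21 and 0.06). The fourth, Bhs2020_003V1.1, was higher 613 bp downstream in both tables, with 0.15 hydrated and 0.37 at 70% RWC, and 0.05 hydrated and 0.25 at 10% RWC. That stretch also lies in the body of a neighbouring gene, described as oligopeptidase B. For 3 of the 4 oxidase genes the deposited entry gives cytokinin trans-hydroxylase, a cytochrome P450, as a second match. The match scores are close for Bhs2020_003V1.1 (329 and 320) and Bhs6956_003V1.1 (332 and 305) and further apart for Bhs106_013V1.1 (424 and 317). Bhs5801_001V1.1 has the oxidase match alone, with a score of 1132, and a Gene Ontology term for microbodies, the organelles that include peroxisomes. Downstream of Bhs422_020V1.1, the enoyl-CoA hydratase and 3-hydroxyacyl-CoA dehydrogenase of the next steps, the level was 0.14 hydrated and 0.32 at 10% RWC.

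Glycerolipid assembly held the largest loss at 70% RWC. The first acyl group of most glycerolipids is put on by glycerol-3-phosphate acyltransferases. Upstream of the acyltransferase gene Bhs14278_001V1.1 the hydrated level was 0.52, and the level at 70% RWC was listed as 0 (scaffold14278, 8661 to 9032, 646 bp from the gene). The overlapping stretch of the second table (8946 to 9188, 87 bp in common) had 0.34 hydrated and 0.03 at 10% RWC. Bhs19395_001V1.1, with the same description, was low throughout, at 0.02 hydrated and 0.11 in both dehydrated leaves. Its stretch covers 1 end of the gene and the DNA next to it. Downstream of Bhs553_002V1.1, listed as a glycerol-3-phosphate O-acyltransferase, the level was 0.30 hydrated and 0.64 at 70% RWC. These 3 acyltransferase genes therefore did not share a direction at 70% RWC.

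All diacylglycerol kinase genes that were listed had lower levels. These kinases turn diacylglycerol into phosphatidic acid, a lipid signal of water deficit. At 10% RWC 3 of 3 were lower, beside 44.2% of all listed genes. The exact interval of their higher share (0 to 70.8) holds the general 55.8%. In the body of Bhs200_084V1.1 the level was 0.61 hydrated and 0.30 at 10% RWC. Downstream of Bhs75_008V1.1 it was 0.42 and 0.18, and downstream of Bhs106_035V1.1 it was 0.21 and 0.10. The Bhs75_008V1.1 stretch is also listed downstream of a neighbouring glutamate receptor gene. Bhs200_084V1.1 was also lower at 70% RWC, in a stretch at the other end of the gene, 6163 bp away, with 0.17 hydrated and 0.03.

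Other assembly genes went both ways. Bhs2182_001V1.1 makes the precursor of phosphatidylglycerol, the main phospholipid of thylakoids, and its body had 0.32 hydrated and 0.65 at 70% RWC. The synthase of monogalactosyldiacylglycerol, the most abundant thylakoid lipid, is encoded by Bhs2524_021V1.1, whose level was 0.14 hydrated and 0.33 at 10% RWC. Bhs7_160V1.1, the phosphatidylinositol synthase gene, had 0.19 and 0.41. Phospholipid:diacylglycerol acyltransferases move an acyl group from a phospholipid to diacylglycerol and so make storage oil. Bhs4430_006V1.1 of this kind was lower in both tables, at stretches 985 bp apart in its body. The levels there were 0.42 hydrated and 0.15 at 70% RWC, and 0.17 hydrated and 0.01 at 10% RWC. The other gene of this kind, Bhs3553_003V1.1, had 0.13 hydrated and 0.34 at 70% RWC. The remaining 3 assembly genes had small gains, from 0.07 to 0.14. In all, 6 of 9 assembly genes were higher at 70% RWC and 4 of 9 at 10% RWC, beside 70.6% and 55.8% of all listed genes. Both general shares lay inside the exact intervals of these counts (29.9 to 92.5 and 13.7 to 78.8).

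Among phospholipase genes 5 of 7 were higher at 70% RWC, beside 70.6% of all listed genes, and 4 of 11 at 10% RWC, a share of 36.4% (10.9 to 69.2) whose interval holds the general 55.8%. Phospholipase D releases the head group and leaves phosphatidic acid, and it is one of the lipid enzymes studied in other resurrection plants. Of 5 phospholipase D genes at 10% RWC, 4 were lower, where 44.2% of all listed genes were. The largest of these differences was downstream of Bhs80_010V1.1 (0.44 hydrated and 0.22), in the body of a neighbouring mandelonitrile lyase gene, followed by Bhs427_015V1.1 in its body (0.34 and 0.17) and Bhs3093_005V1.1 downstream (0.26 and 0.09). At 70% RWC 2 of 3 were lower, beside 29.4% of all listed genes. One of these 2 genes, Bhs1125_023V1.1, had 0.55 hydrated and 0.27 just downstream, but its description rests on a weak match with an E-value of 1e-07. That stretch is also listed upstream of a neighbouring Prp8 binding protein gene. The exact intervals of the higher share of phospholipase D genes (0.51 to 71.6 at 10% RWC, 0.84 to 90.6 at 70% RWC) hold the general shares.

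A pair of phospholipase D genes had opposite directions in the dehydrated leaves. At Bhs3997_016V1.1 the 70% RWC table lists 1073 bp across 1 end of the gene (scaffold3997, 191616 to 192688), with 0.08 hydrated and 0.28. The 10% RWC table lists 556 bp that lie wholly inside it (192105 to 192660), with 0.12 hydrated and 0.01. The authors assigned the first to the downstream flank and the second to the gene body. At Bhs710_007V1.1 the regions lie at opposite ends of the gene, 2190 bp apart. The level was 0.11 hydrated and 0.02 at 70% RWC at one end, and 0.08 hydrated and 0.20 at 10% RWC at the other. The stretch listed at 70% RWC is also listed downstream of a neighbouring receptor kinase gene.

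Phospholipase C genes of the kind that acts on phosphatidylcholine and like lipids were listed at 10% RWC only, and held the second largest loss there. These enzymes give diacylglycerol directly. Upstream of Bhs603_019V1.1 (scaffold603, 351693 to 352082) the level was 0.70 hydrated and 0.22 at 10% RWC. That stretch lies 1602 bp from the gene and in the body of a neighbouring gene without a description. In the body of Bhs40_124V1.1 it was 0.35 and 0.13. Upstream of Bhs40_075V1.1, 145 bp from the gene, it was 0.02 and 0.29. The delta-type phospholipase C genes, whose products cleave phosphoinositides in response to calcium, also differed in direction, with 0.16 and 0.37 at the downstream end of Bhs215_001V1.1 at 70% RWC and 0.16 and 0.06 downstream of Bhs562_011V1.1 at 10% RWC. The latter stretch lies in the body of a neighbouring cyanohydrin glucosyltransferase gene. The remaining phospholipase and lipase genes remove acyl groups. They include Bhs2376_005V1.1, described as a lysophospholipase, with 0.10 and 0.25 at 70% RWC and 0.14 and 0.31 at 10% RWC. Its match is strong (E-value 1e-111), but its Gene Ontology terms name inorganic anion transport and a product intrinsic to membranes. Bhs261_022V1.1, described as cardiolipin-specific, had 0.25 and 0.51 at 70% RWC. The others, Bhs8139_002V1.1 (0.24 and 0.47 at 70% RWC, in the body of a neighbouring gene without a description), Bhs115_003V1.1 (0.07 and 0.20 at 10% RWC) and the diacylglycerol lipase gene Bhs1898_007V1.1 (0.16 and 0.38 at 70% RWC, 0.05 and 0.16 at 10% RWC), have weak matches with E-values of 2e-09, 2e-07 and 6e-06.

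Lipoxygenases add oxygen to polyunsaturated fatty acids, the first step to jasmonates and other oxylipins. Both listed genes appeared at 10% RWC with small differences of opposite sign. The level was 0.19 hydrated and 0.07 in the body of Bhs2748_005V1.1, and 0.07 and 0.17 upstream of Bhs401_035V1.1, 1528 bp from the gene and in the body of a neighbouring urease gene.

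Sterol genes included the largest loss among lipid genes at 10% RWC. Sterol glucosyltransferases attach glucose to membrane sterols and make steryl glucosides of the plasma membrane. All 4 listed at 10% RWC were lower, where 44.2% of all listed genes were, but they stand for 3 regions, since neighbouring genes share 1 of them. The exact interval of their higher share (0 to 60.2) holds the general 55.8%. Upstream of Bhs18_063V1.1 (scaffold18, 505644 to 506122) the level was 0.64 hydrated and 0.15 at 10% RWC, which is that largest loss. Bhs3562_007V1.1 had 0.48 and 0.16 in its body, with a weak match (E-value 6e-08). The stretch between Bhs2813_008V1.1 and Bhs2813_009V1.1 had 0.43 and 0.18. At 70% RWC Bhs18_063V1.1 was listed on its other side, downstream and in the body of a neighbouring gene, at 0 hydrated and 0.10. The sterol 14-demethylase gene Bhs4140_009V1.1, an early enzyme of sterol synthesis, was higher in both tables. Its stretches of 1200 bp and 1142 bp cover 1 end of the gene, and a neighbour that encodes the iron-sulfur subunit of mitochondrial complex III lies next to it. The level was 0.05 hydrated and 0.31 at 70% RWC, and 0.06 hydrated and 0.26 at 10% RWC. A sterol carrier protein gene, Bhs159_005V1.1, had 0.18 and 0.42 at 70% RWC.

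The ceramide kinase gene was the lipid gene with the same stretch in both tables. Ceramide kinase adds phosphate to ceramide, the core of sphingolipids, and in Arabidopsis its loss leads to spontaneous cell death. In the body of Bhs305_020V1.1 (scaffold305, 119426 to 119926) the hydrated level was 0.29, and the dehydrated levels were 0.60 at 70% RWC and 0.59 at 10% RWC. The dehydrated levels were thus 2.07 times and 2.03 times the same hydrated level and 0.01 apart. The lowest ratio of levels of any listed gene was 1.92 at 70% RWC and 1.86 at 10% RWC, so these ratios are near that edge. The sphingosine kinase gene Bhs771_011V1.1 had 0.06 hydrated and 0.17 at 70% RWC.

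Genes outside these groups included those of fatty alcohols and of lipid flipping. Fatty acyl-CoA reductases make fatty alcohols, among them those of cuticular wax. At 10% RWC both listed reductase genes were lower, where 44.2% of all listed genes were. The general 55.8% lies inside the exact interval of their higher share (0 to 84.2). Just upstream of Bhs3741_005V1.1, 30 bp from the gene, the level was 0.51 hydrated and 0.09, and in the body of Bhs518_032V1.1 it was 0.48 and 0.21. At 70% RWC a reductase gene on the same scaffold as the first, Bhs3741_002V1.1, was higher downstream (0.15 and 0.37), and Bhs1027_003V1.1 had 0.11 and 0.01. The deposited Gene Ontology terms of Bhs518_032V1.1 and Bhs1027_003V1.1 include pollen wall assembly and plastid envelope. A part in cuticular wax is therefore uncertain for them. Phospholipid-transporting ATPases flip phospholipids between the leaflets of a membrane. Upstream of the ATPase gene Bhs2589_002V1.1 neighbouring stretches with 30 bp in common had opposite directions. The level was 0.26 hydrated and 0.58 at 70% RWC (scaffold2589, 45735 to 45949), but 0.44 hydrated and 0.14 at 10% RWC (45545 to 45764). A second flippase gene, Bhs22_012V1.1, had 0.06 and 0.20 at 70% RWC. Bhs4354_001V1.1, described as a cyclopropane fatty acid synthase, had the largest gain among lipid genes at 10% RWC, with 0.09 and 0.43 in its body. Upstream of Bhs168_052V1.1, described as a phospholipase A-2-activating protein, the level was 0.61 hydrated and 0.26 at 70% RWC, 1789 bp from the gene. The glycerol-3-phosphate transporter gene Bhs685_056V1.1 had 0.14 and 0.32 at 70% RWC, in a stretch inside a neighbouring L-ascorbate oxidase gene.

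**Figure D2:**
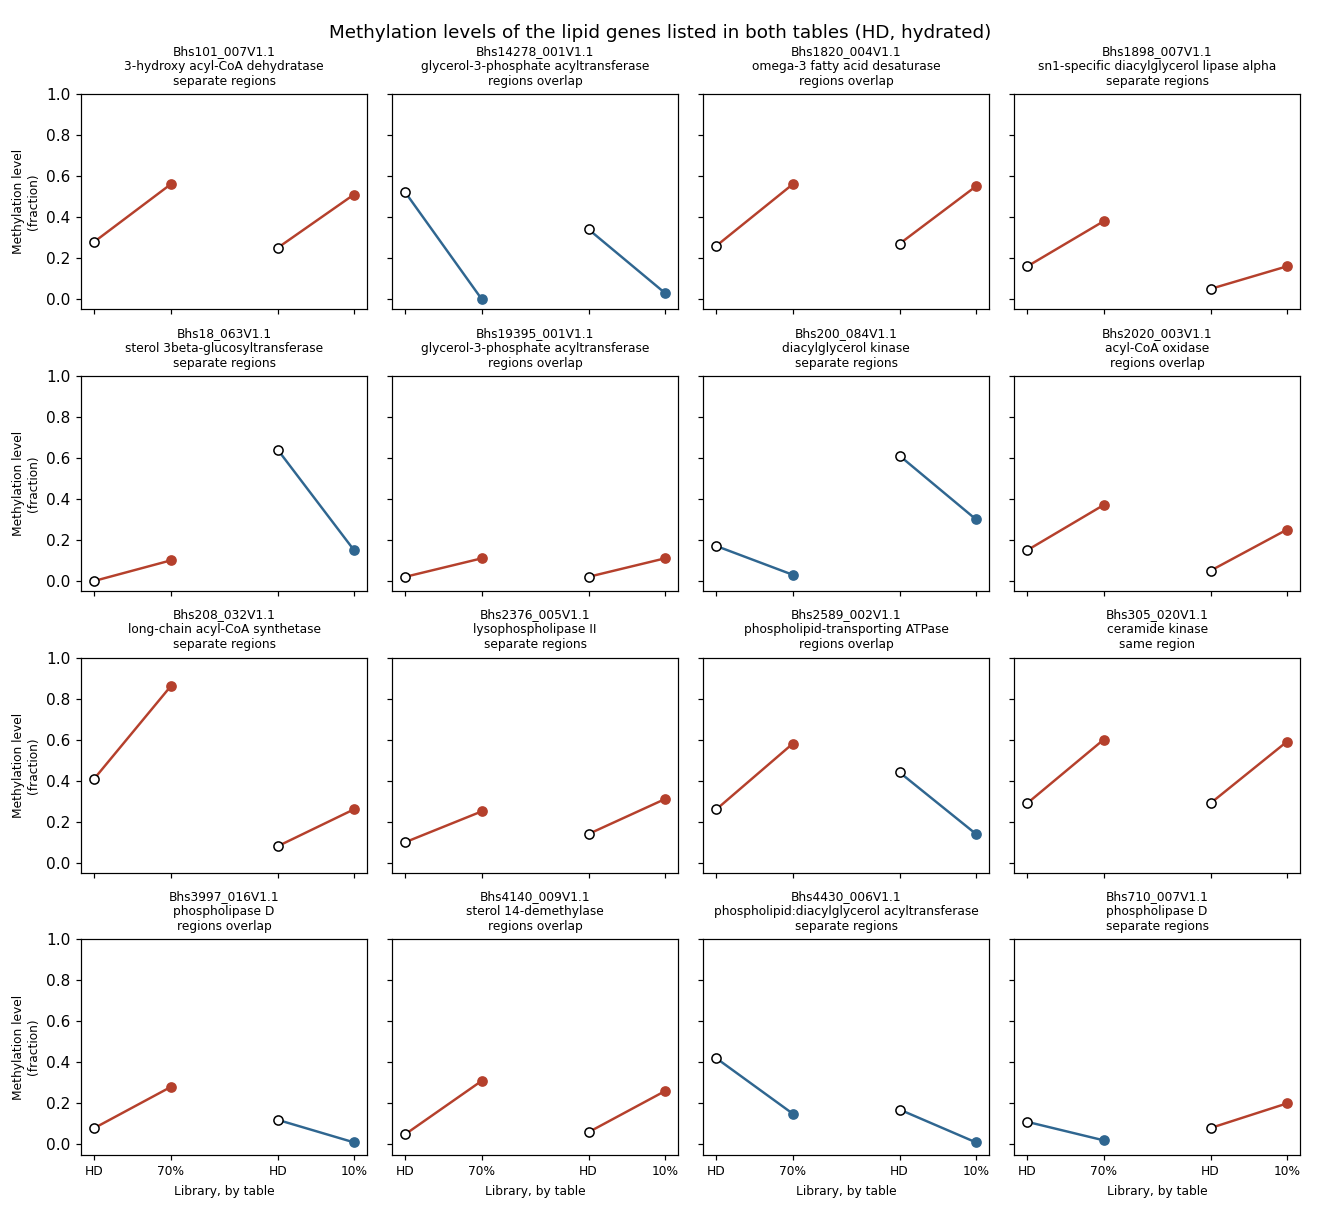
Methylation levels (fraction) of the 16 lipid genes listed in both tables, with the hydrated library (HD, open circles) and the dehydrated library (filled, red higher and blue lower) as each table gives them. In 12 genes both lines run the same way, and in 4 they run opposite ways.

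The 16 genes in both tables made up 45.7% of the lipid genes at 70% RWC and 36.4% of those at 10% RWC, beside 39.7% and 34.5% for all listed genes. Both tables use the same hydrated library, so a like direction is partly built in. Of the 16, 9 were higher in both, 3 lower in both, 3 higher at 70% RWC and lower at 10% RWC, and 1 the reverse. Among all 1262 genes in both tables these counts were 751, 285, 151 and 75. The same direction was thus found for 12 of 16 lipid genes (47.6 to 92.7), beside 82.1% of all 1262. The listed stretches overlapped in 8 of the 16 genes. Of these 8, 6 had the same direction (34.9 to 96.8), beside 94.5% of listed genes with overlapping stretches. Both exact intervals hold the general share beside them. Where the stretches were separate, the direction was also the same in 6 of 8, beside 58.3%. The hydrated level given for overlapping stretches differed between tables by a median of 0.025, and by 0.18 at most, at Bhs14278_001V1.1 and Bhs2589_002V1.1, which share 87 bp and 30 bp.

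**Figure D3:**
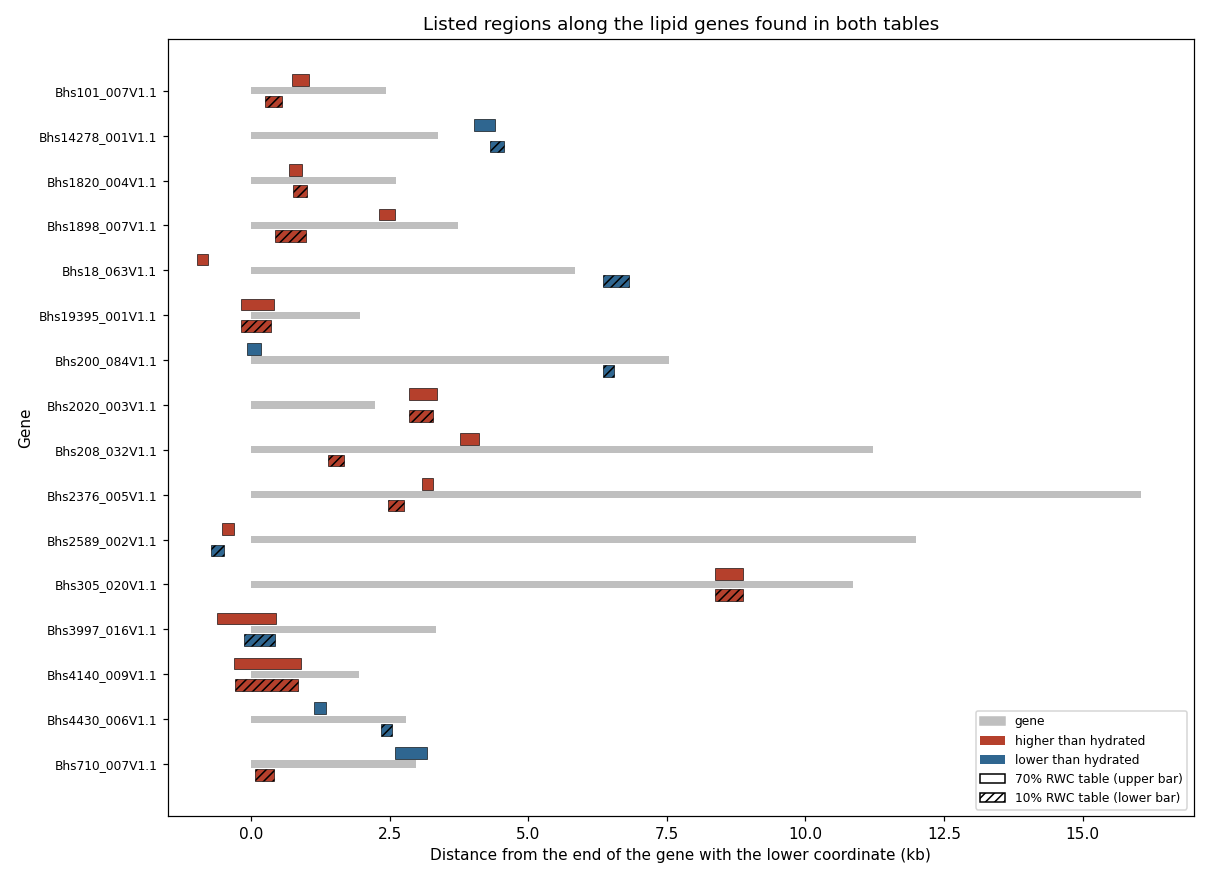
Position of the listed regions along the 16 lipid genes found in both tables, in kb from the gene end with the lower coordinate (grey, gene; upper bar, 70% RWC; hatched lower bar, 10% RWC; red higher, blue lower). The regions overlap in 8 genes, among them Bhs3997_016V1.1 and Bhs2589_002V1.1 with bars of opposite colour.

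The regions of lipid genes lay mostly in the gene body. The body held the region for 54.3% of lipid genes at 70% RWC and 59.1% at 10% RWC, beside 44.3% and 44.2% of all listed genes. Among listed genes with any KEGG description it was 50.3% and 50.8%. The median gene length was 3734 bp and 4547 bp for lipid genes, 2523 bp and 2554.5 bp for all listed genes, and 3144 bp and 3156 bp for described ones. What part gene length has in the body share was not tested. The regions themselves had a median length of 350 bp and 344 bp, beside 340 bp and 337 bp over all. A listed stretch was shared with a neighbouring gene for 12 of 35 and 14 of 44 lipid genes, 34.3% and 31.8%, beside 30.0% and 30.5% of all listed genes. Only some of these neighbours are named above.

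At 10% RWC lipid genes with a region in a flank were mostly lower, in counts whose intervals hold the general shares. In gene bodies 15 of 26 lipid genes were higher, beside 61.5% of all listed genes. Upstream it was 2 of 9, beside 50.1%, and downstream 3 of 9, beside 52.3%. Taken as flanks, 5 of 18 were higher, a share of 27.8% (9.69 to 53.5), beside 51.2%. Counted by region it was 5 of 17, since neighbouring lipid genes share 1 of them. Of the 18, 10 had a stretch shared with a neighbouring gene. That is 55.6%, beside 40.8% of all listed genes with a flanking region. The 7 upstream losses, all at genes named above, had a median of -0.31, and 5 of them were of 0.3 or more. Upstream losses of all listed genes were close in size, with a median of -0.28 (quartiles -0.35 and -0.21). In gene bodies the losses of all listed genes had a median of -0.2. At 70% RWC 14 of 19 were higher in bodies, 2 of 4 upstream and 11 of 12 downstream, beside 71.0%, 71.3% and 69.3%. At both water contents each of these general shares lay inside the interval of the lipid genes.

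**Figure D4:**
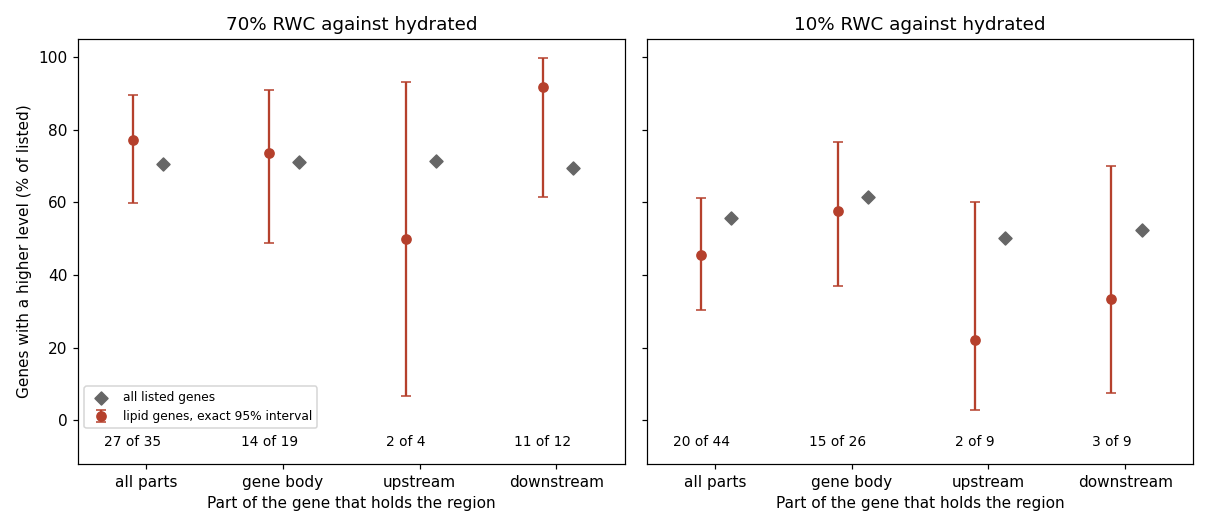
Share of genes with a higher methylation level than in the hydrated library (%), by the part of the gene that holds the region, for lipid genes (red, with exact 95% binomial intervals and counts) and all listed genes (grey diamonds). At 10% RWC 5 of 18 lipid genes with a flanking region were higher, and 15 of 26 with a body region, beside 51.2% and 61.5% of all listed genes.

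The direction was also counted by level. Where the higher of the 2 levels was 0.5 or above, 8 of 11 lipid genes were higher at 70% RWC and 3 of 8 at 10% RWC, beside 67.8% and 38.2% of all listed genes. Where it was below 0.2, the counts were 5 of 8 and 4 of 8, beside 65.5% and 72.2%. In between, they were 14 of 16 and 13 of 28, beside 73.5% and 56.5%. Among differences of 0.3 or more, 7 of 9 lipid genes were higher at 70% RWC and 2 of 9 at 10% RWC, beside 67.2% and 41.0%.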

How the data were processed

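The members and lists were chosen with earlier results of these data known. Genomic DNA was sonicated, ligated to methylated adaptors, converted with bisulfite and amplified by PCR, per the labels' protocols. The authors deposited methylation levels as a fraction from 0 to 1, per the file headers a mean per region and library. Aligner, region caller, conversion rate, genome build and coverage are not stated in the sources used here, so depth and single-level intervals are unknown. The higher of the 2 deposited levels was at least 0.1 for every listed gene, and the lowest ratio of levels was 1.92 at 70% RWC and 1.86 at 10% RWC. Positions are the deposited scaffold coordinates, and each gene end was computed from its start and length. Blank lines (57411 and 54694) were left out.

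Differences are the dehydrated minus the hydrated level. Members were counted by gene. With 1 library per condition no test was run. Intervals are exact Clopper-Pearson. The counting was tested on simulated data. Genes named by rule (33) are all members in both tables, the 12 largest differences per table and the 2 largest per role group and table. Other members are named where a small family is described, chosen after their values were seen. Roles were set from descriptions. Tables were read with pandas 2.3.3 under Python 3.11.15, intervals came from scipy 1.17.1, and figures from matplotlib 3.10.9. Alternatives were minimum differences, counting by region, single-gene regions, narrower keywords, leaving out levels of 0 or 1 and length weighting. Leaving out weak matches or entries with a second description was added after seeing the data.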

Additional observations from a re-analysis of the deposited data

Results flagged for a closer look

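4 lipid genes had opposite directions in the dehydrated leaves, at stretches that were not the same. For each, the difference from hydrated at 10% RWC minus that at 70% RWC was taken. It was -0.59 for the sterol glucosyltransferase gene Bhs18_063V1.1, -0.62 for the phospholipid-transporting ATPase gene Bhs2589_002V1.1, -0.31 for the phospholipase D gene Bhs3997_016V1.1 and 0.21 for the phospholipase D gene Bhs710_007V1.1. The difference was not tested, since each condition had 1 library. The regions overlap at Bhs2589_002V1.1 (30 bp) and Bhs3997_016V1.1 (556 bp). They are separate at Bhs18_063V1.1 (7128 bp apart) and Bhs710_007V1.1 (2190 bp apart). These values therefore do not compare the dehydrated leaves over the same stretch, and place and water content cannot be told apart in them.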

How the results depend on the processing

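There were 65 alternatives to the shares and medians of the lipid genes. Of these, 61 stayed inside the interval (shares) or the quartiles (medians) of the reported value, and 4 did not. The medians were taken within genes of 1 direction, so they could not turn a sign. With differences of 0.3 or more, the higher share was 22.2% at 10% RWC (2 of 9), 0% in flanks at 10% RWC (0 of 5) and 100% in gene bodies at 70% RWC (4 of 4). With identical boundaries the share of the same direction was 100%, from 1 gene. The cause was not tested, and few genes remain under each. At 10% RWC the higher share ran from 22.2% to 46.5% over its alternatives, and at 70% RWC from 77.1% to 80%. A coverage minimum could not be tried without coverage, nor leaving out a library with 1 per condition. No paired analysis was possible because each condition had 1 library.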

Other observations

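Lipid genes outside the keywords went both ways in about equal numbers. A wider list of words (among them desaturase, acyltransferase, phosphatid, squalene and cycloartenol) took 49 further genes. At 70% RWC 16 of 31 were higher, a share of 51.6% (33.1 to 69.8). The general 70.6% lies just above this interval, whereas the share of the keyword genes was 77.1%. At 10% RWC 14 of 27 were higher, a share of 51.9% (31.9 to 71.3) whose interval holds the general 55.8%. The words also took zeta-carotene desaturase, an enzyme of carotenoid synthesis, for 5 higher and 2 lower entries at 70% RWC and 2 higher and 4 lower at 10% RWC. Phosphatidylinositol entries were higher for 5 of 10 genes at 70% RWC and 9 of 13 at 10% RWC. The rest, without a proteolipid ATPase subunit, had 6 of 13 genes higher at 70% RWC and 3 of 8 at 10% RWC.

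Upstream of Bhs1084_003V1.1, the gene of the enzyme that activates phosphoethanolamine for phosphatidylethanolamine synthesis, the level was listed at 0 hydrated and 0.49 at 70% RWC. The CDP-diacylglycerol synthase gene Bhs3_111V1.1, which makes the activated lipid for phosphatidylglycerol and phosphatidylinositol, was lower upstream in both tables, with 0.31 hydrated and 0.14 at 70% RWC, and 0.27 hydrated and 0.12 at 10% RWC. Upstream of the delta-9 desaturase gene Bhs152_014V1.1 the level was higher in both, with 0.18 and 0.38, and 0.21 and 0.43. Upstream of Bhs263_001V1.1, an allene oxide cyclase of jasmonate synthesis, it was 0.53 hydrated and 0.21 at 10% RWC. Genes of acyl chain synthesis on the acyl carrier protein went both ways. The 3-oxoacyl reductase gene Bhs1306_015V1.1 was lower in its body in both tables, with 0.14 and 0.02, and 0.12 and 0.02. Of 3 genes of 3-oxoacyl synthase II at 70% RWC, Bhs4_132V1.1 (0.17 and 0.05) and Bhs8_011V1.1 (0.39 and 0.19) were lower and Bhs4995_004V1.1 (0.21 and 0.43) higher. These genes were chosen after their values were seen.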
